A study of Bombyx mori with 4 samples.

Results

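The sequences described here are the LTR retrotransposons of the silkworm (Bombyx mori) transposon library that do not belong to the Gypsy family. They were chosen by name alone: each library name carries a class and a family after a # sign, and every sequence of class LTR with a family other than Gypsy was taken. This gave 70 of the 18596 sequences in the table and 70 of the 1716 in the transposon library. Pao held 41 of them, Copia 15, an unclassified LTR group 10, DIRS 3 and Retrovirus 1.

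FAST-iCLIP was used to record the RNA held by BmVasa, the silkworm Vasa protein. In this assay UV light links proteins to the RNA they touch in living cells, an antibody (here against BmVasa) collects the protein, and the RNA pieces that come with it are read by sequencing. The cells were BmN4, a line derived from silkworm ovary and labelled with ovary as its tissue. In the Spn-E KD group, cells were electroporated with an siRNA duplex against Spindle-E (Spn-E), and in the Luc KD group, the control, with one against luciferase. Each group had 2 replicates, and nothing else in the labels separates the groups. The comparison asks whether BmVasa holds other RNAs when Spn-E, on which the piRNA-loaded form of Siwi depends, is depleted.

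LTR retrotransposons are copied through an RNA that runs between long terminal repeats, is translated into Gag and Pol proteins and is reverse transcribed into DNA. Copia elements differ from Pao (also called Bel/Pao) and Gypsy elements in the order of the pol domains, with integrase ahead of reverse transcriptase in Copia and behind it in the others, and DIRS elements use a tyrosine recombinase in place of the usual integrase. In animal germ cells such RNAs are cut by PIWI proteins guided by piRNAs, and Vasa, a DEAD-box RNA helicase, is a core protein of the perinuclear granules (nuage) where this takes place.

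The authors merged the replicates, so the table holds 1 pooled library per group, with 1059323 genome-mapped reads in Spn-E KD and 1012269 in Luc KD. Levels are in RPM, which are reads in proportion to all genome-mapped reads, and a single read was worth 0.944 RPM in Spn-E KD and 0.988 RPM in Luc KD. No difference below has a replicate check: intervals are 95% intervals that cover counting error only, and each test on reads compares these pooled libraries, not the conditions. One unclassified transposon, BmTE_RM5-571, took 27.3% of the gene-library reads in Spn-E KD and 18.0% in Luc KD, and the log2 fold change of the median tested sequence was -0.24. Scaling to gene-library reads without BmTE_RM5-571 moved every log2 ratio by 0.17, and TMM scaling or centring on the median moved it by 0.24. Gene models carry no symbols in the table, so neither the knockdown of Spn-E nor markers of ovarian cells were checked. Total RNA was not analysed here, and stronger binding by BmVasa and a larger amount of the RNA cannot be told apart. The methods name both random and multiple counting for reads that match several sequences and do not state which made the table, so the counts of closely related members are uncertain.

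Pao carried most of the reads on the 70 members. Its 41 sequences held 8353 reads in Spn-E KD and 9461 in Luc KD, or 7885 and 9346 RPM, which was 2.07% of gene-library reads in Spn-E KD and 2.46% in Luc KD. The difference was -0.391 percentage points (Newcombe interval -0.457 to -0.325). Over gene-library reads without BmTE_RM5-571 it was smaller, at -0.153 percentage points (-0.238 to -0.0686). The log2 ratio of the summed RPM was -0.25 (Clopper-Pearson interval -0.29 to -0.20). The Pao sum was thus lower in Spn-E KD as the authors scaled the table and without BmTE_RM5-571 (-0.076, interval -0.12 to -0.033), but not distinguishable from equal under TMM scaling (-0.0029, interval -0.045 to 0.040) or centring (-0.0069, interval -0.049 to 0.036).

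Copia went the other way. Its 15 sequences held 1351 reads in Spn-E KD and 1114 in Luc KD, 0.335% and 0.290% of gene-library reads, a difference of 0.0451 percentage points (0.0204 to 0.0698). The log2 ratio of summed RPM was 0.21 (0.097 to 0.33), and each of the other scalings kept it above 0. Without Benibana, the most abundant Copia member, the ratio was 0.12 (-0.013 to 0.25) as the authors scaled the table. Over gene-library reads without BmTE_RM5-571, Copia without Benibana was still higher in Spn-E KD, by 0.063 percentage points (0.035 to 0.091). BmTE_RM6-5209 differed by more than Benibana, with 304 RPM in Spn-E KD and 183 RPM in Luc KD, against 311 and 211 RPM.

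The 3 smaller families showed no difference beyond counting error as the authors scaled the table. The unclassified group held 421 reads in Spn-E KD and 393 in Luc KD, with a log2 ratio of 0.034 (-0.17 to 0.24). DIRS held 220 reads in Spn-E KD and 184 in Luc KD, with a log2 ratio of 0.19 (-0.097 to 0.48). The Retrovirus member, Kuroneko, had 31 reads in Spn-E KD and 22 in Luc KD, and the interval of its log2 ratio ran from -0.41 to 1.29. Under TMM scaling the intervals of the unclassified group (0.074 to 0.48) and of DIRS (0.15 to 0.73) lay above 0, while that of Kuroneko (-0.16 to 1.53) did not.

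**Figure D1:**
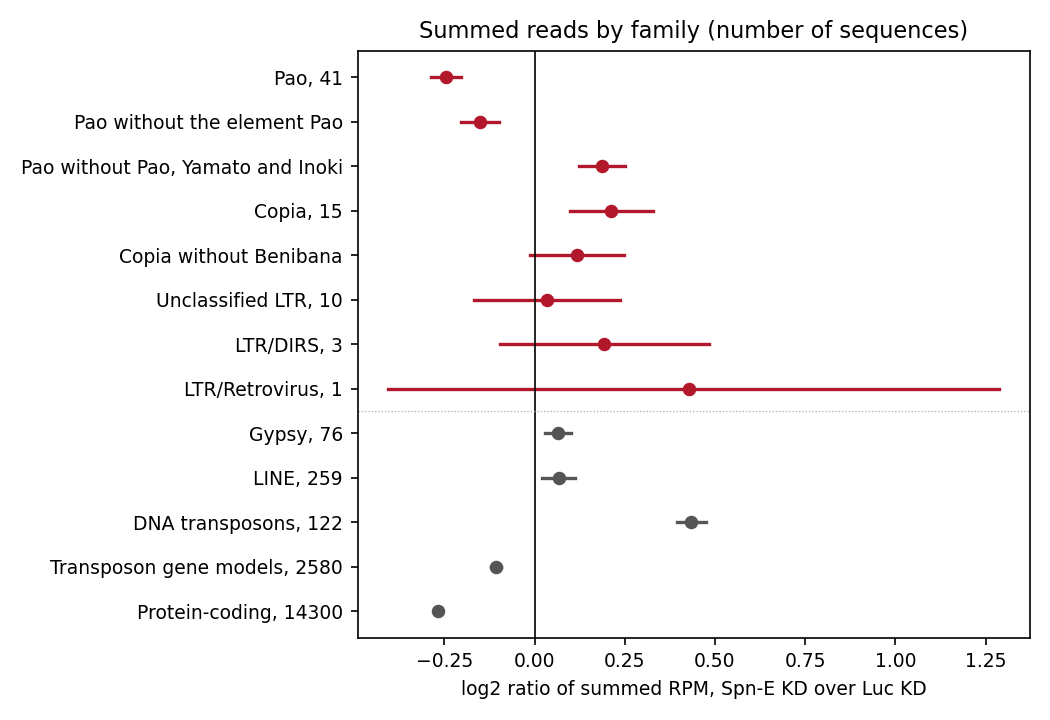
The log2 ratio of summed RPM, Spn-E KD over Luc KD, is drawn for each non-Gypsy LTR family and for other classes, with the number of sequences beside each name, points for the sums and bars for the 95% Clopper-Pearson intervals. The Pao sum lies at -0.25 and the Copia sum at 0.21, and the intervals of the unclassified group, DIRS and Retrovirus cross 0.

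Gypsy, the LTR family with the most sequences in the table, was used for comparison with these sums. It held 13469 reads in Spn-E KD and 12305 in Luc KD on 76 sequences. A ratio of reads between families does not depend on how the libraries are scaled. Pao reads were fewer relative to Gypsy in Spn-E KD than in Luc KD, with an odds ratio of 0.807 (Fisher's exact test, conditional interval 0.776 to 0.838), and Copia reads were more frequent relative to Gypsy, with an odds ratio of 1.11 (1.02 to 1.20). The Copia value rested on single sequences: it was 1.04 without Benibana and 0.988 without the most abundant Gypsy sequence. The Pao value was 0.719 (0.688 to 0.751) without that Gypsy sequence. For the unclassified group (0.979, interval 0.849 to 1.13), DIRS (1.09) and Kuroneko (1.29), the difference from Gypsy was not detectable at this depth. Copia and Pao, set against each other, differed by an odds ratio of 1.37 (1.26 to 1.50), and by 1.29 (1.18 to 1.41) without the element Pao. Without Pao, Yamato and Inoki the odds ratio was 1.02 (0.929 to 1.12), and no difference between the families was detectable.

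The Pao total turned on 3 sequences. Pao itself, Yamato and Inoki held 46.3% of the family's reads in Spn-E KD and 60.2% in Luc KD, and 37.3% and 51.0% of the reads on all 70 sequences. The other 38 Pao sequences together held 4483 reads in Spn-E KD and 3764 in Luc KD, a log2 ratio of 0.19 (0.12 to 0.25). Their odds ratio against Gypsy was 1.09 (1.04 to 1.14), with the most abundant Gypsy sequence kept. Without that sequence Gypsy held 8281 reads in Spn-E KD and 6743 in Luc KD, and the 38 were not tested against these. The value of 1.09 leaves out top sequences on the Pao side only. It therefore does not show that the 38 rose relative to the other Gypsy sequences. The split of Pao was made after the values were seen and is a description of where the reads lie. Among all 18596 sequences ranked by RPM, Pao was number 5 in Spn-E KD and number 3 in Luc KD, Yamato 36 and 19, and Inoki 146 and 45.

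For single sequences, the reads of both libraries were set against the share that library depth predicts (exact binomial test, two-sided, Benjamini-Hochberg threshold 0.05 over all 4727 sequences that averaged 10 RPM or more). Of the 70 members, 54 reached that mean. The other 16 had at most 13 reads in Spn-E KD and 12 in Luc KD, and 5 of them (4 Pao and 1 Copia) had no read in either library, which allows up to 2.83 RPM in Spn-E KD and 2.96 RPM in Luc KD. Of the 54 tested, 11 had more and 10 had fewer reads in Spn-E KD past the threshold, or 38.9%, against 12.0% of all tested sequences (3.74% higher and 8.23% lower). The test passes abundant sequences more easily: among those that averaged 50 RPM or more, 60.0% of the members (21 of 35) and 45.4% of all sequences passed, as did 60.0% of Gypsy. Scaled without BmTE_RM5-571, 13 members were higher and 8 lower, against 10.1% of all sequences (5.33% higher and 4.74% lower). In edgeR's exact test, which was given a variation (coefficient of variation) of 0.1 from one pooled library to the next, 5 members were higher and 6 lower, against 4.04% of all sequences (1.57% higher and 2.48% lower). At 0.2 it called 0 members and 0.169% of all sequences. At that setting 9 of the 54 members and 337 of all 4727 sequences had an unadjusted p under 0.05.

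**Figure D2:**
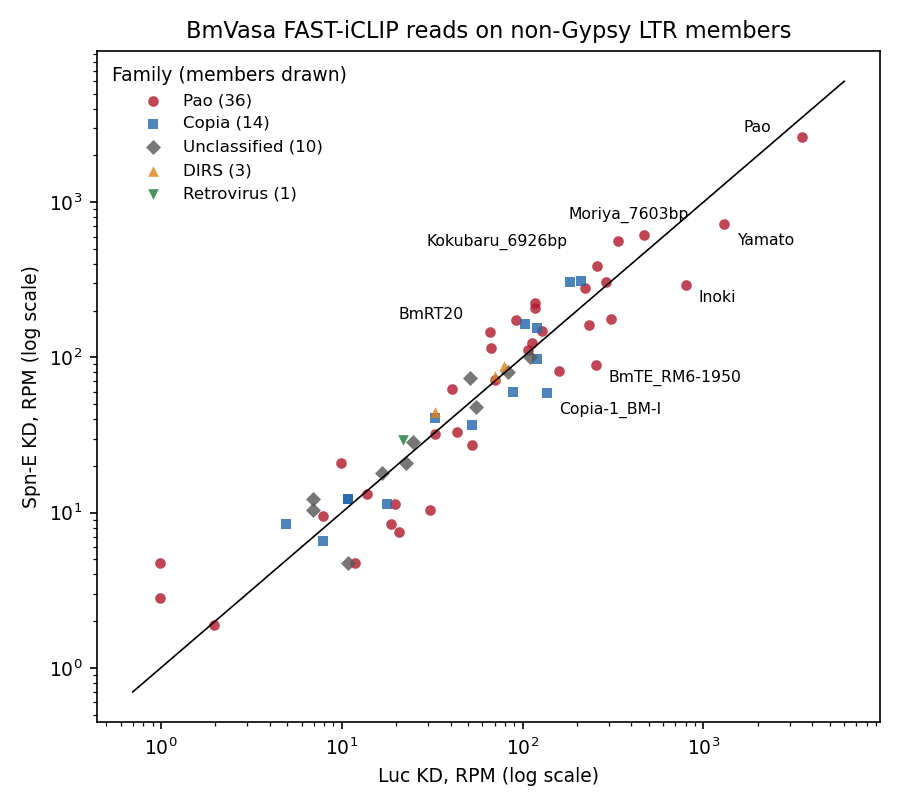
Each point is one of the 64 members with reads in both libraries, at its RPM in Spn-E KD (vertical, log scale) and in Luc KD (horizontal, log scale), and the line marks equal RPM. Pao, Yamato, Inoki and BmTE_RM6-1950 lie below the line at high RPM, and Kokubaru_6926bp, Moriya_7603bp and BmRT20 lie above it.

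Of the 31 tested Pao members, Spn-E KD had 8 called higher and 9 called lower, or 54.8%, against 12.0% of all tested sequences. Pao holds many abundant sequences, which pass more easily. At 50 RPM or more 72.7% of Pao passed, against 68.0% of LINE and 45.4% of all sequences. The log2 fold changes of the 31, each taken after adding 1 RPM to both libraries, ran from -1.49 to 1.13, with a median of 0.032. The typical Pao sequence therefore did not follow the sum of the family, and 16 of the 31 had a positive value. The median over all tested sequences was -0.24 and over protein-coding sequences -0.30.

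Pao, the element that names the family, had 2797 reads (2640 RPM) in Spn-E KD and 3564 reads (3521 RPM) in Luc KD. Its log2 fold change of -0.42 was small but rested on many reads (exact binomial test, adjusted p = 8.04e-28). It was -0.18 under centring and -0.17 under TMM scaling, still past the threshold, but did not pass at an assumed variation of 0.1 (adjusted p = 0.286, edgeR's exact test). Yamato had 764 reads in Spn-E KD and 1320 in Luc KD, a log2 fold change of -0.85. YAMATO_BM, a shorter entry with a related name, moved alike, with 186 reads in Spn-E KD and 314 in Luc KD (-0.82). Whether the entries share reads was not tested.

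Inoki, BmTE_RM6-1950 and BmTE_RM6-289 fell by more than Pao and Yamato, and were less abundant than both. Inoki had 309 reads in Spn-E KD and 813 in Luc KD, or -1.46 as log2 fold change (exact binomial test, adjusted p = 6.81e-55). BmTE_RM6-1950 had 95 reads in Spn-E KD and 257 in Luc KD, a log2 fold change of -1.49. BmTE_RM6-289 had 87 reads in Spn-E KD and 162 in Luc KD (-0.95). These 5 sequences, Inoki, BmTE_RM6-1950, BmTE_RM6-289, Yamato and YAMATO_BM, were also the Pao members that edgeR's exact test with an assumed variation of 0.1 called lower.

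A further 3 lower Pao members lost their calls under other scalings. BmTE_RM5-2070, a 455-nt fragment, had 11 reads in Spn-E KD and 31 in Luc KD (-1.47) and lost its call under TMM scaling and centring (adjusted p = 0.074 in the exact binomial test under each). BmTE_RM1-629 had 29 reads in Spn-E KD and 53 in Luc KD (-0.91), and BmTE_RM6-9613 had 172 and 237 (-0.53). Both lost their calls under each of the other scalings.

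On the other side, BmRT20 had the highest value of the family, with 155 reads (146 RPM) in Spn-E KD and 67 (66.2 RPM) in Luc KD, or 1.13 as log2 fold change (exact binomial test, adjusted p = 6.58e-07). Kamikaze had 236 reads in Spn-E KD and 118 in Luc KD (0.93). Kaede had 184 and 93 (0.91), and Orochi 221 and 118 (0.83).

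The other 4 higher members included the most abundant ones. Moriya_7603bp had 650 reads in Spn-E KD and 475 in Luc KD (0.39), and Kokubaru_6926bp had 592 and 341 (0.73). BmTE_RM6-3974 had 413 reads in Spn-E KD and 262 in Luc KD (0.59), and BmTE_RM1-378 had 122 and 68 (0.77). All 8 kept a positive value and their call under the other scalings, and 5 of them (BmRT20, Kamikaze, Kaede, Orochi and Kokubaru_6926bp) were also called by edgeR's exact test with an assumed variation of 0.1.

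The 14 tested Pao members that did not pass ran from -1.35 to 1.00, with 8 above and 6 below 0. Kimono came nearest to the threshold, with 296 reads in Spn-E KD and 223 in Luc KD (0.34, adjusted p = 0.0573, exact binomial test), and it passed under every other scaling. BmTE_RM6-6410 had a larger value on fewer reads, with 66 reads in Spn-E KD and 41 in Luc KD (0.61, adjusted p = 0.157, exact binomial test), and passed under TMM scaling and centring (adjusted p = 0.031 under each). BmTE_RM5-4827, one of the more abundant Pao sequences, had nearly equal levels, at 308 RPM in Spn-E KD and 289 RPM in Luc KD (0.088). BmRT18 (111 and 108 RPM), BmRT19 (148 and 128 RPM), Yokohama (125 and 113 RPM) and BmRT24 (71.7 and 70.1 RPM) were also close in Spn-E KD and Luc KD, but their counting intervals allow log2 ratios of up to 0.55.

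**Figure D3:**
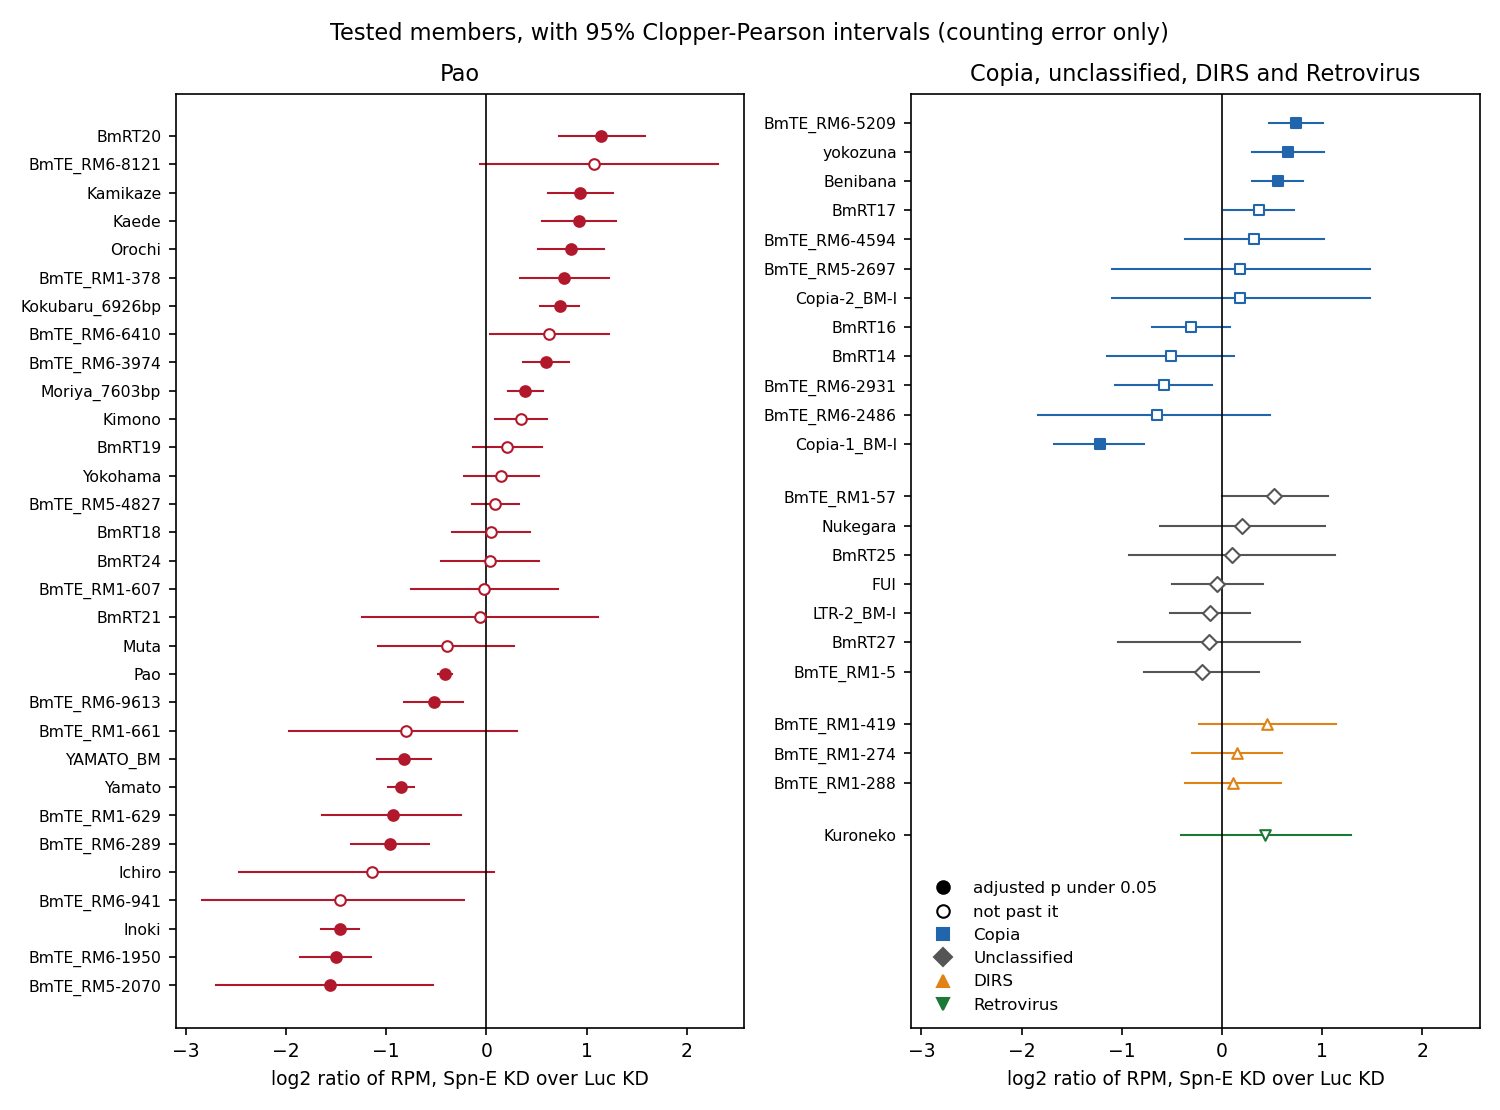
The log2 ratio of RPM, Spn-E KD over Luc KD, is drawn for the tested members, Pao in one panel and the other families in the next, with 95% Clopper-Pearson intervals, filled symbols for members past the adjusted threshold of 0.05 and open symbols for the rest. No pseudocount was added here. Pao members spread to both sides of 0, from BmRT20 at 1.14 to BmTE_RM5-2070 at -1.56, with 8 called higher and 9 called lower, and Copia has 3 called higher and Copia-1_BM-I called lower.

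Short and long Pao sequences were not distributed alike. Of the 13 Pao sequences under 2500 nt, 4 had no read and 5 were tested, and all 5 had negative log2 fold changes, with 3 called lower. Under each of the other scalings 1 of the 5 (BmTE_RM1-607) was positive, and 2 were called lower without BmTE_RM5-571 and 1 under TMM scaling or centring. Summed over all 13, the log2 ratio was -0.77 (-0.99 to -0.55), and -0.53 under TMM scaling or centring. YAMATO_BM alone held 186 of their 287 reads in Spn-E KD and 314 of 467 in Luc KD. The 17 sequences of 5000 nt or more were all tested, and 11 had positive values, with 7 called higher and 3 lower. Over all tested sequences 3.74% were called higher and 8.23% lower. Among all sequences that averaged 50 RPM or more, which pass more easily, the shares were 16.1% higher and 29.3% lower. The summed log2 ratio of the 17 was -0.15 (-0.21 to -0.084) as the authors scaled the table. Without BmTE_RM5-571 it was not distinguishable from 0 (0.024, interval -0.038 to 0.086). It was 0.093 (0.031 to 0.15) under centring and 0.097 (0.035 to 0.16) under TMM scaling. Across the 31 tested Pao sequences Spearman's rho between length and log2 fold change was 0.41, given as a description since the points share both libraries and the length bounds were chosen after the values were seen. Abundance did not order them in the same way: rho between mean RPM and log2 fold change was 0.099.

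Copia members were fewer and less abundant, with 12 of 15 tested, 3 higher and 1 lower in Spn-E KD. That was 33.3%, against 12.0% of all tested sequences, 30.9% of Gypsy, 28.9% of DNA transposons and 24.4% of LINE. At 50 RPM or more 71.4% of Copia passed (5 of 7). The shares there were 60.0% of Gypsy, 68.0% of LINE, 55.3% of DNA transposons and 45.4% of all sequences. The median log2 fold change of the tested Copia members was 0.16 and the range -1.21 to 0.73. Benibana had 329 reads (311 RPM) in Spn-E KD and 214 (211 RPM) in Luc KD, or 0.55 as log2 fold change (exact binomial test, adjusted p = 2.62e-04). BmTE_RM6-5209 had almost the same abundance and a larger difference, with 322 reads in Spn-E KD and 185 in Luc KD (0.73). These 2 sequences made up 24.4% and 23.8% of Copia reads in Spn-E KD, against 19.2% and 16.6% in Luc KD. The third higher member, yokozuna, had 173 reads in Spn-E KD and 105 in Luc KD (0.65).

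Copia-1_BM-I, the internal part of the Copia-1 element, was the one Copia member called lower. It had 62 reads (58.5 RPM) in Spn-E KD and 138 (136 RPM) in Luc KD, or -1.21 as log2 fold change (exact binomial test, adjusted p = 3.89e-07). It was also the one Copia member called with an assumed variation of 0.1 (adjusted p = 0.0041, edgeR's exact test). The 8 Copia members that did not pass ran from -0.61 to 0.36 and split evenly around 0.

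Among those 8, BmRT17 had 163 reads in Spn-E KD and 121 in Luc KD (0.36, adjusted p = 0.175, exact binomial test) and passed under each of the other scalings. BmRT16 had 103 reads in Spn-E KD and 122 in Luc KD (-0.31). BmTE_RM6-2931 had 63 reads in Spn-E KD and 90 in Luc KD (-0.57), and passed when only sequences of at least 50 RPM were tested. Copia-2_BM-I and BmTE_RM5-2697, of 4040 and 3873 nt, had the same counts, 13 reads each in Spn-E KD and 11 each in Luc KD.

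No member of the unclassified group passed the threshold in the exact binomial test (0 of 7 tested, 1 at an unadjusted p under 0.05, and 0 in edgeR's exact test at each assumed variation). LTR-2_BM-I, the internal part of the element LTR-2, was its most abundant member, with 107 reads in Spn-E KD and 111 in Luc KD. Its log2 fold change was -0.12 and turned positive under the other scalings, as did that of FUI, with 85 reads in Spn-E KD and 84 in Luc KD (-0.048). BmTE_RM1-57 had the highest value of the group, with 78 reads in Spn-E KD and 52 in Luc KD (0.51, adjusted p = 0.194, exact binomial test), and passed under TMM scaling and centring. BmTE_RM1-5 had the lowest, with 51 reads in Spn-E KD and 56 in Luc KD (-0.20), and turned positive under TMM scaling and centring.

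The 3 DIRS members all had positive values that did not pass (0 at an unadjusted p under 0.05 in the exact binomial test and in edgeR's exact test at each assumed variation). BmTE_RM1-274 had 93 reads in Spn-E KD and 80 in Luc KD (0.15), BmTE_RM1-288 had 80 and 71 (0.11), and BmTE_RM1-419 had 47 and 33 (0.43). The library lists 4 more sequences under a class of their own named DIRS, which the naming rule leaves out. Kuroneko, at 9957 nt the longest member, was thinly covered for its length, with 2.94 RPKM in Spn-E KD and 2.18 RPKM in Luc KD.

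Levels of different sequences were compared per length, as RPKM (RPM divided by length in kb). Pao had the highest density of all members, 551 RPKM in Spn-E KD and 735 RPKM in Luc KD, and ranked 26 and 17 among all sequences of the table. Yamato, at 113 RPKM in Spn-E KD and 204 RPKM in Luc KD, and BmTE_RM6-3974, at 105 and 69.8 RPKM, came next within Pao in Spn-E KD. In Luc KD, Yamato was followed by YAMATO_BM (75.9 RPKM in Spn-E KD and 134 RPKM in Luc KD) and Inoki (45.8 and 126 RPKM). Among Copia sequences of 1000 nt or more the densest was BmTE_RM6-5209, at 65.5 RPKM in Spn-E KD and 39.4 RPKM in Luc KD, well below Pao.

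In the unclassified group a short sequence led. LTR-2_BM-I, of 563 nt, had 179 RPKM in Spn-E KD and 195 RPKM in Luc KD, and BmTE_RM1-57, of 848 nt, had 86.8 and 60.6 RPKM. In DIRS the shortest member, BmTE_RM1-419, was the densest, at 61.4 RPKM in Spn-E KD and 45.1 RPKM in Luc KD. The median density of tested members was 22.7 RPKM in Spn-E KD and 21.5 RPKM in Luc KD, against 9.91 and 12.6 RPKM for protein-coding sequences. Other transposon classes lay on both sides. Gypsy had 13.4 and 15.0 RPKM and LINE 13.4 and 12.9 RPKM. DNA transposons had 37.4 and 32.5 RPKM, SINE 38.2 and 31.5 RPKM, and unclassified transposons 45.6 and 45.2 RPKM. The minimum of 10 RPM lets in short sequences only at a high density. Over the 65 members with a read, length went with reads (Spearman's rho 0.56) but not with RPKM (rho -0.066), as a description over points that share both libraries.

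**Figure D4:**
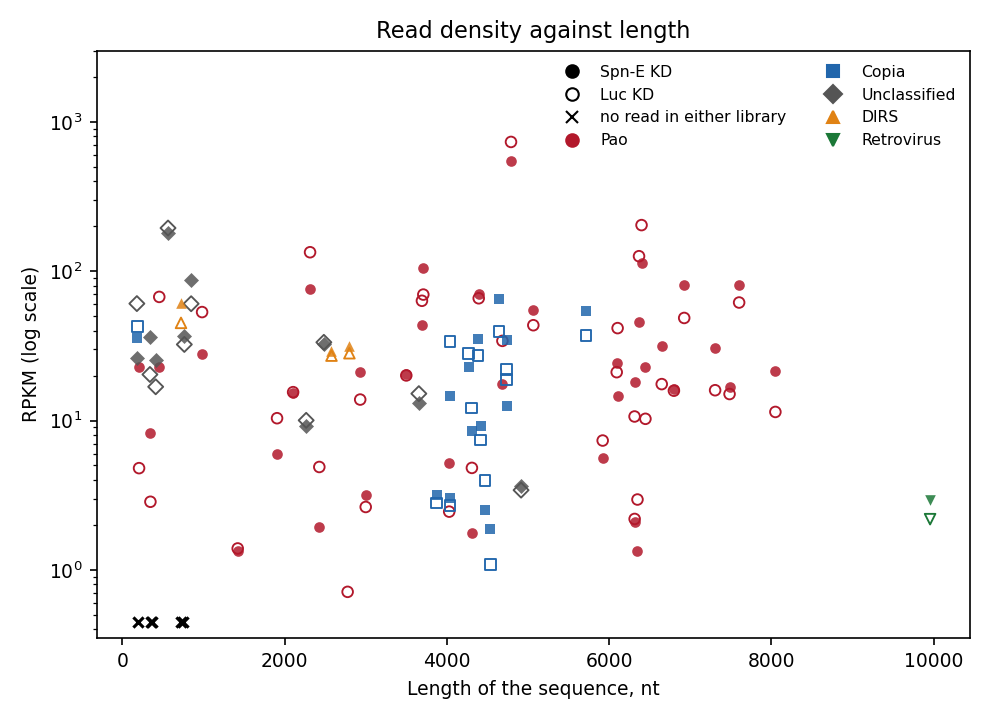
RPKM (log scale) is drawn against the length of each member in nt, with filled symbols for Spn-E KD, open symbols for Luc KD and crosses for the members with no read in either library. Pao stands highest, at 551 RPKM in Spn-E KD and 735 RPKM in Luc KD, and the 5 members with no read are 190 to 742 nt long.

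For 3 elements the library lists the terminal repeat and the internal part as separate sequences. In LTR-2 the repeat was covered less densely than the internal part, with a ratio of reads per kb of 0.147 (0.0468 to 0.354) in Spn-E KD and 0.312 (0.151 to 0.580) in Luc KD, from 5 and 11 reads on the repeat. In Copia-1 the repeat had 7 reads in Spn-E KD and 8 in Luc KD on 186 nt, and the ratios of 2.45 (0.946 to 5.36) in Spn-E KD and 1.26 (0.533 to 2.55) in Luc KD did not differ from 1 beyond counting error. In Copia-2 the repeat had no read, which with 13 and 11 reads on the internal part allows ratios of up to 6.98 in Spn-E KD and 8.47 in Luc KD. The fall of Copia-1_BM-I was thus seen on the internal part, and the few reads on the repeat could not show whether it shared it.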

How the data were processed

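BmVasa FAST-iCLIP was performed in BmN4 cells under Spn-E KD and Luc KD, with 2 replicates per group (4 samples), grouped by the labels. The authors trimmed adaptors (Cutadapt 4.0), reduced reads with the same random barcode and sequence to one, mapped reads to the SilkBase genome of Bombyx mori (STAR 2.7.9a), remapped them to a library of gene models and transposons (Bowtie 1.3.1), counted sense reads (SAMtools 1.15) and merged the replicates. The deposited read counts are therefore whole numbers, pooled by group. The authors divided them by the genome-mapped reads to obtain the deposited RPM values, and by length in kb for the deposited RPKM values.

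Summed reads were compared by Clopper-Pearson intervals, shares by Newcombe intervals and families with Gypsy by odds ratios with the conditional interval of Fisher's exact test. Single sequences were tested by a two-sided exact binomial test with Benjamini-Hochberg adjustment over 4727 sequences (mean of at least 10 RPM, threshold 0.05), and log2 fold changes (Spn-E KD over Luc KD) were taken after adding 1 RPM to each value, so changes of sequences with few reads are understated. Alternatives changed the minimum, the pseudocount, the scaling, the base of the shares and the most abundant members, or used edgeR's exact test with an assumed coefficient of variation of 0.1, 0.2 or 0.4. Members were named if they averaged at least 50 RPM, passed the adjusted threshold, had the highest or lowest log2 fold change or the highest RPKM of their family, or were a part of an element listed in parts. Other members were named after their values were seen. Members and lists were chosen with earlier results of these data known. Of the member names, 0 matched the RefSeq gene table, and no sequence is printed. The code was tested on simulated data. Analyses ran in R 4.3.3 with edgeR 4.0.16 and in Python 3.11.15 with pandas 2.3.3, scipy 1.17.1, numpy 2.4.6 and matplotlib 3.10.9.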

Additional observations from a re-analysis of the deposited data

How the results depend on the processing

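No paired analysis was possible because each group has only its merged column. The replicate block and the fits that leave out a replicate, both planned, were therefore not run. The shares of reads (Spn-E KD minus Luc KD, percentage points) moved with the sequences and base used. For Pao the difference was 0.132 without its 3 most abundant members, chosen after the data were seen, and -0.124 from summed RPKM (0.825% in Spn-E KD and 0.949% in Luc KD). It was 0.0192 for Copia without Benibana, 0.0189 for the unclassified group and 0.0167 for DIRS over gene-library reads without BmTE_RM5-571, and for all members -0.00687 over that base and -0.0734 from summed RPKM. The odds ratio against Gypsy became 1.09 for Pao without those 3 members, with every Gypsy sequence kept. Without the most abundant Gypsy sequence it was 0.719 for all of Pao, 0.988 for Copia and 0.974 for DIRS. It was 1.04 for Copia without Benibana and 1.02 for the unclassified group without LTR-2_BM-I.

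With an assumed variation of 0.1, edgeR's exact test called 5 Pao members higher and 5 lower, 0 Copia members higher, and 5 higher and 6 lower of all members. With 0.2 and 0.4 it called 0 in every family, with 9 and 0 members at an unadjusted p under 0.05. Of all 4727 tested sequences, 337 and 34 had such a p. At a minimum of 50 RPM, 2 Copia members were lower. At the minimum of 10 RPM, 1 unclassified member was higher under centring and under TMM scaling. The median log2 fold change minus that of all tested sequences was 0.27 for Pao, 0.40 for Copia and 0.33 for all members. With no minimum it was 0.12, 0.25 and 0.18, at 50 RPM it was 0.36 for Pao and 0.55 for Copia, and with a pseudocount of 5 RPM it was 0.28 for all members. At a minimum of 50 RPM that of the unclassified group was 0.10, against 0.19.

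Under the other scalings, 6 tested members changed sign, 2 of Pao (BmTE_RM1-607 and BmRT21) and 4 unclassified (BmRT27 and the named ones), and 0 of these were called. The values of the named ones were 0.037 (centred) and 0.041 (TMM) for BmTE_RM1-5, 0.12 (without BmTE_RM5-571), 0.19 (centred) and 0.19 (TMM) for FUI, and 0.051, 0.12 and 0.12 for LTR-2_BM-I. Of 395 alternative values for the 40 named members with a test, 313 kept direction and call, 62 lost the call (52 of them under assumed variation) and 12 gained it. Depth limited the rare members most, since the interval of the log2 ratio was wider than 1 for all 17 tested members with fewer than 50 reads in both libraries.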
